A study of Mus musculus with 172 samples.

Results

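The line differences in gene expression that cortex and liver share were described in 33 BXD lines, for 10625 genes of the 12695 genes listed in both tissues (16308 genes were listed in either tissue). Genes were taken when their mean expression was at least 1 log2 CPM (the log2 of read counts scaled to library size) in the undisturbed libraries of both tissues. For each gene the 33 line values of cortex were correlated with the 33 line values of liver. A gene was called as having the same line order when Pearson's r was above 0 and its Benjamini-Hochberg adjusted p over the 10625 correlations was under 0.05, and as having the opposite line order when r was below 0 at the same threshold. The rule used no measured pattern other than this mean level. The genes closest to it in cortex were *Rsad2* (mean 0.99965 log2 CPM, not tested, r = 0.196) and *Fibin* (mean 1.0003 log2 CPM, tested, r = 0.151).

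The mice were males aged 11 to 14 weeks of BXD recombinant inbred lines (BXD/RwwJ, sublines BXD48a, BXD65a and BXD73b included) and of the parental strains C57BL/6J (B6) and DBA/2J (D2). Mice were left undisturbed (Ctr) or were kept awake by gentle handling for 6 h from light onset (SD), and both groups were killed at the same hour, ZT6. RNA of 3 mice was pooled for each line, tissue and condition, with fewer mice for BXD79, BXD85 and BXD101, and each pool gave 1 library, so 132 of the 172 libraries are those of the 33 lines. The parental strains had 2 pools in each condition, from the start and the end of data collection. With 1 pool a line and condition there is no replicate within a line, the p-values measure the agreement of the 33 lines, and the sources used here do not say whether the same mice gave both tissues of a pool. The p-values treat the 33 lines as independent, the sublines included.

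A recombinant inbred line is a mosaic of its 2 parental genomes fixed by brother-sister mating, so each line carries the B6 or the D2 allele of almost every gene and can be bred again and again. A variant in or beside a gene can change that gene's own messenger RNA (cis regulation), and then it can act in every tissue where the regulatory element is used. A variant elsewhere can act through a diffusible factor (trans regulation), and hormones, immune mediators and the time of day reach both brain and liver as well.

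The libraries held 19025159 to 28998853 reads on listed genes in cortex and 4681101 to 8269401 in liver, as recovered from the deposited values, so that a given CPM rested on fewer reads in liver. All 10 cortex markers exceeded 1 log2 CPM in cortex and 4 of 10 did so in liver, where *Syt1*, a synaptic vesicle protein, averaged 6.03 against 11.2 in cortex. All 12 liver markers exceeded 1 log2 CPM in liver, and 1 was listed in cortex (*Cps1*, a urea cycle enzyme, -0.86 log2 CPM). The line labels of the tissues were compared through the genes called in the other condition. Over 616 such genes, the cortex Ctr pool of every line resembled the liver Ctr pool of its own line best (33 of 33 lines, own correlation 0.316 to 0.691). Over 623 such genes the same held for 32 of 33 lines in SD, and the exception was the subline BXD65a, which was closer to BXD65. The Ctr and SD cortex pools of BXD90 and BXD89 resembled each other less than those of other lines. Their r across all genes tested, of deviations from the mean in units of each gene's standard deviation, was -0.0127 and 0.00487, against a median of 0.422 over lines. Over the genes called in Ctr or SD it was 0.327 and 0.495 (median 0.748), and each cortex Ctr pool, these included, was still closest to the SD pool of its own line. Counts without both lines are given beside the results, some ranges below end at one of them, and none of the 41 called genes that are named lost its call without them. In bulk tissue, fewer cells of a type and less RNA per cell cannot be told apart.

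For most genes no shared line order was called, which with 1 pool a line does not show that there was none. In Ctr, r had a median of 0.0092 over the 10625 genes, with the 5th percentile at -0.348 and the 95th at 0.471. The same line order was called for 471 genes (4.43% of genes tested) and the opposite line order for 152 (1.43%), and the weakest call had an absolute r of 0.502. At an unadjusted p under 0.05 there were 982 positive and 550 negative correlations. An r of at least 0.9 was reached by 45 genes and one of at most -0.9 by 8 genes. Without BXD89 and BXD90 the counts were 486 and 156, and without the sublines BXD48a, BXD65a and BXD73b they were 444 and 144. In liver, where counting error is largest, 3.15% of genes with under 30 reads per library had the same line order, against 4.92% with 100 to 300 reads and 3.60% with over 1000.

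**Figure D1:**
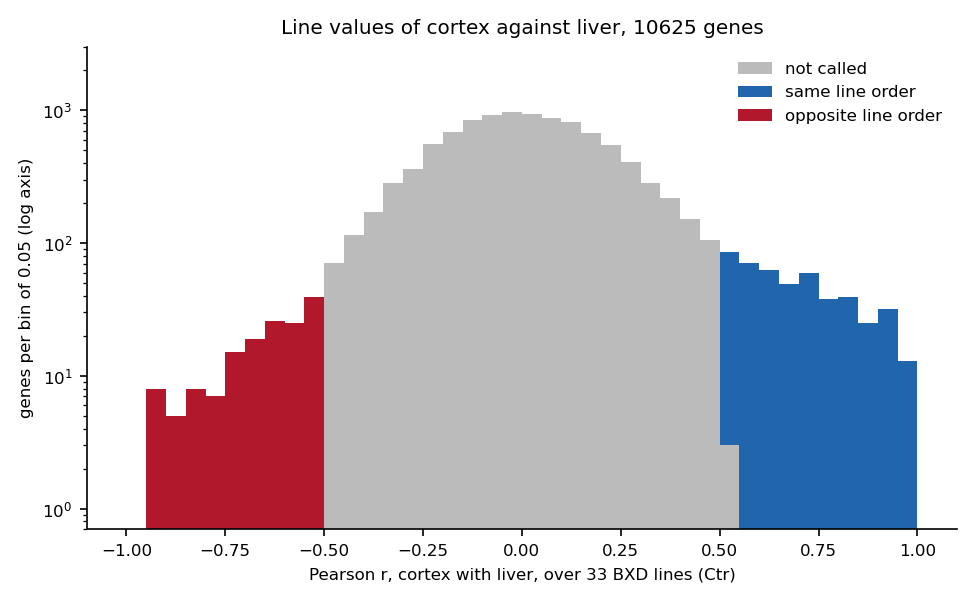
Number of genes in bins of r (vertical axis, log scale, stacked) by Pearson's r of the 33 line values of cortex with those of liver in Ctr pools (horizontal axis), in grey for genes not called, blue for the 471 genes with the same and red for the 152 with the opposite line order. The calls fill both ends beyond an absolute r of 0.502, and the centre lies near 0 (median 0.0092).

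The calls were then followed in the SD pools, which came from other mice of the same lines. SD pools gave 497 genes with the same line order (4.68%) and 119 with the opposite order (1.12%), and 465 and 113 without BXD89 and BXD90. Of the 471 genes with the same order in Ctr, 335 (71.1%) were called with the same order in SD and 463 (98.3%) had r above 0. Of the 152 genes with the opposite order, 77 (50.7%) were called so in SD and 142 (93.4%) had r below 0. No gene was called in the other direction. The share called again differed with the strength of r in Ctr. All 45 genes with an r of at least 0.9 were called again, as were 149 of 161 (92.5%) between 0.7 and 0.9 and 141 of 265 (53.2%) below 0.7. On the opposite side the counts were 8 of 8, 29 of 35 (82.9%) and 40 of 109 (36.7%).

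Pools of different condition, which come from different mice of a line, were also set against each other. These comparisons share 1 tissue's libraries with the Ctr comparison. Cortex Ctr with liver SD gave 399 genes of the same order (3.76%) and 114 of the opposite order (1.07%), and cortex SD with liver Ctr gave 490 (4.61%) and 166 (1.56%). All 4 combinations of pools called 289 of the 471 genes (61.4%) with the same order and 63 of the 152 (41.4%) with the opposite order.

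**Figure D2:**
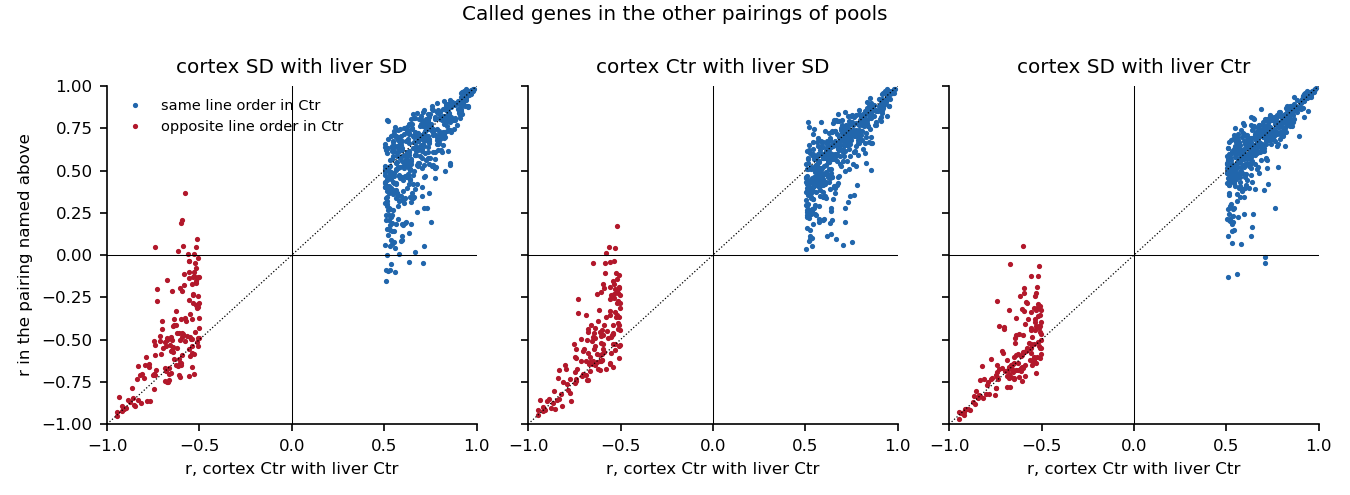
Pearson's r of cortex with liver line values in 3 other combinations of pools (vertical axes, 1 panel each) against r in the Ctr pools of both tissues (horizontal axes), 1 point per gene called in Ctr, blue for the same and red for the opposite line order, with the dotted line where both r are equal. With SD pools of both tissues, 463 of 471 blue and 142 of 152 red points keep their side of 0.

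The spread between lines was larger in the called genes, given here as a description. The standard deviation between lines had a median of 0.225 log2 CPM in cortex and 0.266 in liver for genes with the same order, and of 0.200 and 0.258 for genes with the opposite order, against 0.114 and 0.154 for genes not called. The spread in liver was more than 2 times that in cortex for 88 genes of the same order (18.7%), 50 of the opposite order (32.9%) and 2625 not called (26.2%). The reverse held for 49 (10.4%), 8 (5.26%) and 264 (2.64%). For 70 of the 471 and 17 of the 152 genes, lines fell into a low and a high group, separated by a gap, in both tissues. All 33 lines were on the same side of the gap in both tissues for 36 of the 70 genes, and all 33 were on opposite sides for 7 of the 17. These groups were counted in called genes only, so no share over all genes is given. The genes were called by r, so the match of sides follows in part from the call.

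The strongest r in the same direction was that of *Pttg1*, which encodes securin, the inhibitor of separase that holds sister chromatids together until anaphase (mm9 chr11:43233752-43239753, minus strand). In cortex its Ctr line values ran from 0.83 (BXD56) through a median of 4.53 to 4.80 log2 CPM (BXD70), and in liver from 3.34 (BXD73) through 5.76 to 5.99 (BXD43). In cortex 16 lines lay at or below 1.93 and 17 at or above 4.53, in liver 16 lay at or below 4.21 and 17 at or above 5.76, and all 33 lines were on the same side in both. The r by which the gene was chosen was 0.986 (adjusted p = 7.24e-22; rho = 0.782; permutation p = 1e-05 for each, the smallest that 100000 resamples can give). Within the low and the high lines r was 0.337 and -0.111, so the relation rests on which group a line belongs to. In SD r was 0.981.

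*Rpl29*, a protein of the large ribosomal subunit (mm9 chr9:106331785-106333899, plus strand), had the widest range in cortex among the 10 genes with the highest r. Its line values ran from -2.89 (BXD70) through 4.05 to 4.80 log2 CPM (BXD90) in cortex and from 3.33 (BXD66) through 5.50 to 5.97 (BXD50) in liver, with an r of 0.982 (rho = 0.768). The 16 low lines ended at -0.74 in cortex and at 3.90 in liver, and the 17 high lines began at 4.05 and 5.50, without overlap and with every line on its side in both tissues. The gap between the groups, each within its own table, was thus wider in cortex than in liver.

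The other genes among the 10 highest had r between 0.957 and 0.978 and behaved alike. *Tceanc2*, which carries domains of a transcription elongation factor, had 13 high lines from 4.22 log2 CPM upward in cortex and from 5.26 in liver, and 20 low lines up to 2.44 and 2.46 (r = 0.978). *Rnps1*, an RNA-binding protein of the exon junction complex, had 9 low lines, up to 4.59 in cortex and 4.15 in liver (r = 0.973). *Tpm3*, an actin-binding tropomyosin, had 17 low and 16 high lines, divided by a gap of 1.24 log2 units in cortex and 0.34 in liver (r = 0.970). *Cox7a2l*, an assembly factor of respiratory chain supercomplexes known to differ between B6 and D2, had 15 low lines, up to 5.63 in cortex and 4.97 in liver (r = 0.957). *Zfp874a*, a zinc finger gene, had 12 low lines, up to 3.05 and 5.45 (r = 0.957).

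*Fbxo44*, the substrate-binding subunit of a ubiquitin ligase, showed how unequal the size of a shared difference can be. In cortex its lines ran from 6.02 (BXD65a) through 6.66 to 6.89 log2 CPM (BXD90), and in liver from -2.77 (BXD70), the value of a gene without reads, through 2.81 to 3.80 (BXD43). The 12 low and 21 high lines were the same in both tissues (r = 0.959), with a standard deviation between lines 7.95 times as large in liver. This ratio holds on the log scale, where the low liver lines reach down to the value without reads. *2610507I01Rik* had 23 low and 10 high lines in both tissues (r = 0.972), and *4833420G17Rik* had 32 of 33 lines on the same side (r = 0.965). For all 10 genes the relation lay between the groups, and within a group r was -0.226 to 0.426. Permutation p for r was 1e-05 for all 10 and for rho at most 0.00054 (*Rnps1*). These tests reuse the Ctr values by which the genes were chosen, so a small p followed from the choice. Without the 2 lines farthest from the cortex median r was 0.953 to 0.990, and in SD it was 0.944 to 0.983.

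Further genes with the same line order were named for their wide spread in both tissues and formed groups in neither or in cortex alone. *Capn11*, a calpain protease, ran from -2.12 (BXD100) through 1.35 to 5.03 log2 CPM (BXD85) in cortex and from -0.21 (BXD44) through 3.12 to 6.24 (BXD85) in liver. Its values formed no separate groups, and both measures of order were high (r = 0.943, adjusted p = 1.09e-13; rho = 0.907; permutation p = 1e-05 for each; r = 0.933 without BXD85 and BXD71). *Eps8l1*, an actin regulator related to Eps8, had an r of 0.904 within its 22 high and 0.302 within its 11 low cortex lines (r = 0.922, rho = 0.931), and liver lines reached down to -2.77, the value without reads. *Col6a5*, a collagen VI chain, had an r of 0.843, with 0.216 and 0.227 within its 11 low and 22 high cortex lines, so its relation lay between these groups.

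**Figure D3:**
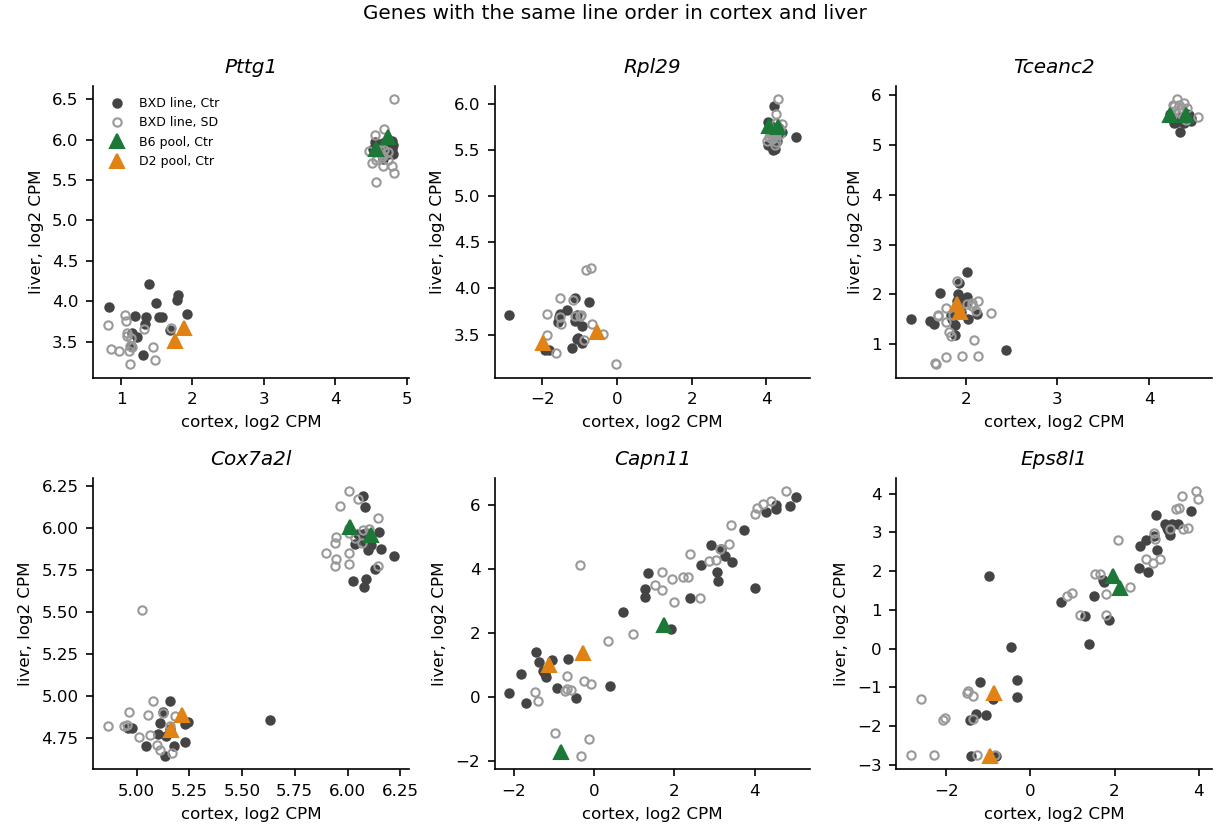
Liver log2 CPM (vertical axes) against cortex log2 CPM (horizontal axes) for 6 genes with the same line order, with 33 BXD lines as filled (Ctr) and open (SD) circles and the parental Ctr pools as green (B6) and orange (D2) triangles. In *Pttg1* and *Rpl29* 16 low and 17 high Ctr lines form separate clouds, and in *Capn11* the lines form a continuous band (r = 0.943).

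The strongest opposite order was that of *Mlycd*, malonyl-CoA decarboxylase, which degrades the metabolite that blocks entry of fatty acids into mitochondria (mm9 chr8:121918778-121935002, plus strand). In cortex its lines ran from 4.29 (BXD100) through 4.54 to 5.54 log2 CPM (BXD89), and in liver from 5.87 (BXD44) through 6.81 to 7.16 (BXD51). The 14 lines at or above 5.13 in cortex were the 14 lines at or below 6.16 in liver, and the 19 low cortex lines were the 19 high liver lines. The r by which it was chosen was -0.948 (adjusted p = 4.70e-14; rho = -0.694; permutation p = 1e-05 for each), -0.953 in SD, and -0.0793 and 0.245 within the low and the high cortex lines. Its level was well covered in both tissues, with a mean of 678 and 668 reads per library.

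*Fut10*, a gene of the fucosyltransferase family (mm9 chr8:32297803-32372210, plus strand), ran from 1.52 (BXD73) through 3.19 to 3.53 log2 CPM (BXD49) in cortex and from 0.56 (BXD70) through 1.95 to 4.48 (BXD45) in liver. All 19 lines at or above 3.06 in cortex were at or below 2.46 in liver, and the other 14 were high in liver (r = -0.947, adjusted p = 6.05e-14; rho = -0.756). *Slc39a2*, a zinc importer, had 9 high lines in cortex, from 3.40 log2 CPM upward, which were the 9 low lines in liver, at or below 0.66, while the other 24 reached up to 5.28 there (r = -0.918, rho = -0.571). Few reads are counted at the level of its low liver lines, and its r was -0.779 on linear CPM. *Atg16l2*, a relative of the autophagy gene *Atg16l1*, had 13 high cortex lines that were the 13 low liver lines (r = -0.921, rho = -0.737).

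Further genes were opposite with a small spread in cortex and a wide one in liver. *Mtmr7*, a myotubularin-related lipid phosphatase, ran from 6.13 (BXD85) through 6.30 to 6.68 log2 CPM (BXD81) in cortex and from 3.09 (BXD89) through 5.41 to 5.98 (BXD66) in liver, with all 33 lines on opposite sides (r = -0.913). *Atp6v0e2*, a subunit of the proton pump of vesicles, spanned 0.45 log2 units in cortex and 4.50 in liver (r = -0.907). *Fmn2*, a formin that nucleates actin filaments, spanned 0.69 and 5.71 (r = -0.90). *Tuba1a*, the alpha-tubulin of developing neurons, spanned 0.97 and 2.37 (r = -0.889). For each of these last genes 32 of 33 lines were on opposite sides, as for *Zfp157*, a zinc finger gene (r = -0.936), and *Darc*, an atypical chemokine receptor of vessels and red cells (r = -0.874).

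*Sytl1*, a synaptotagmin-like protein of vesicle transport, had the opposite order with spreads of like size, 3.05 log2 units in cortex and 3.47 in liver (r = -0.744, adjusted p = 4.04e-05; rho = -0.658). Its lines fell into 16 low and 17 high in cortex and into no groups in liver, and within the cortex groups r was 0.230 and 0.320. For the 10 genes with the lowest r, r within a cortex group lay between -0.620 (*Atp6v0e2*, high lines) and 0.281 (*Slc39a2*, high lines). Permutation p was 1e-05 for r in all 10 and at most 6.9e-04 (*Slc39a2*) for rho, again from the Ctr values by which these genes were chosen. Without the 2 lines farthest from the cortex median r was -0.958 to -0.870, and in SD it was -0.953 to -0.838.

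**Figure D4:**
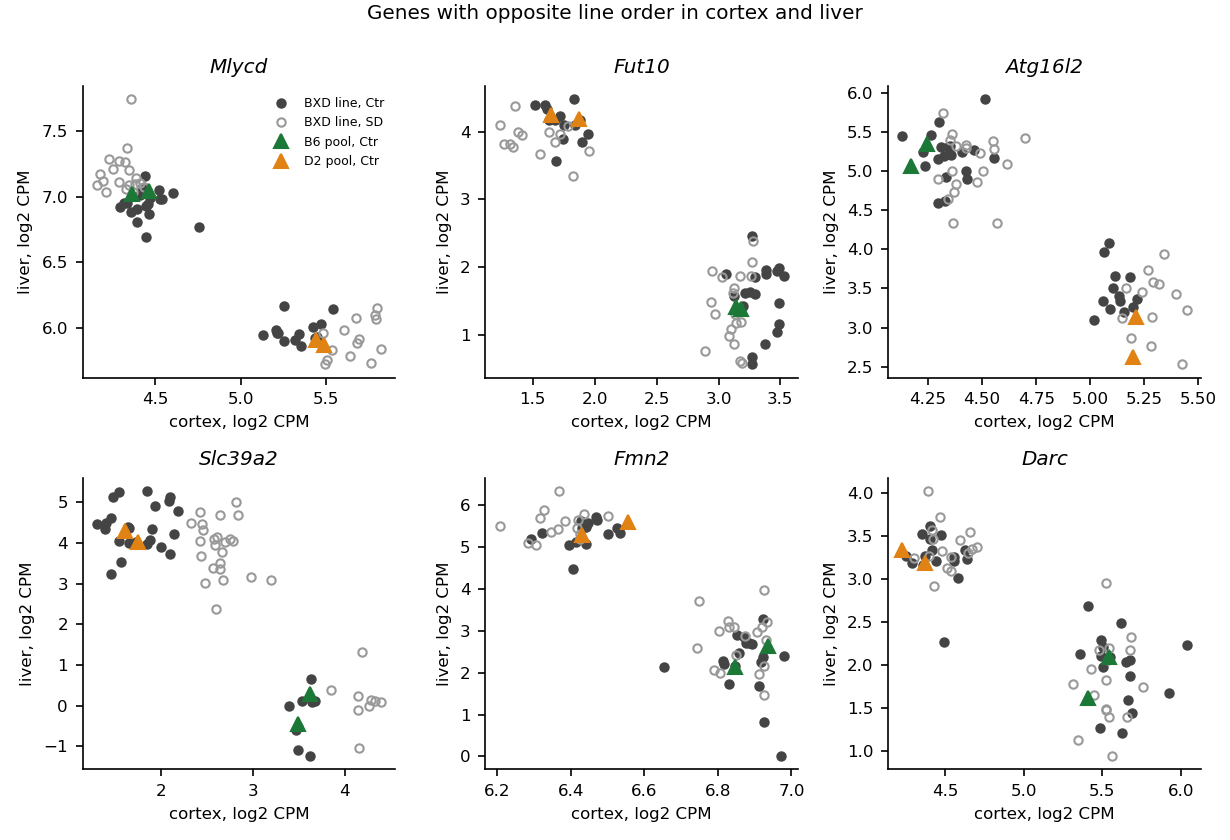
Liver log2 CPM (vertical axes) against cortex log2 CPM (horizontal axes) for 6 genes with the opposite line order, with 33 BXD lines as filled (Ctr) and open (SD) circles and the parental Ctr pools as green (B6) and orange (D2) triangles. Lines high in cortex are low in liver, with all 33 Ctr lines on opposite sides for *Mlycd*, *Fut10*, *Atg16l2* and *Slc39a2*.

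The parental strains gave a comparison that the choice of genes had not used. D2 was set against B6 in 4 pools a strain and tissue, 2 Ctr and 2 SD, with condition in the model (limma, called at an adjusted p under 0.05, with all listed genes of a tissue adjusted together). Of the genes with the same line order, 378 of 471 (80.3%) differed between the parents in cortex, where 25% of all genes tested did, and 308 (65.4%) differed in liver, where 17% did. Both tissues differed for 264 of them, of which 261 had the same sign (189 lower and 72 higher in D2) and 3 had opposite signs. Over all genes tested, 460 genes (4.33%) differed in both tissues with the same sign, 298 lower and 162 higher in D2, and 245 (2.31%) with opposite signs. Of the genes with the opposite line order, 107 of 152 (70.4%) differed in cortex and 83 (54.6%) in liver, and all 60 that differed in both had opposite signs, with D2 higher in liver and lower in cortex for 45 of the 60. Over all genes tested, that direction held for 146 of the 245 with opposite signs.

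The parents of named genes are given as means over Ctr and SD pools, whereas the line groups are those of Ctr. *Pttg1* averaged 4.72 log2 CPM in B6 and 1.61 in D2 in cortex, and 5.80 and 3.53 in liver, a difference (D2 minus B6) of -3.11 ± 0.12 (standard error, n = 4 pools a strain, limma adjusted p = 1.01e-10) and -2.27 ± 0.13 (3.97e-08). *Rpl29* differed by -5.41 ± 0.24 in cortex and by -2.12 ± 0.11 in liver, and *Fbxo44* by -0.48 ± 0.04 and -5.08 ± 0.47. All 10 genes with the highest r were lower in D2 in both tissues. Reads of both strains had been aligned to mm9, a B6 genome, and its part in these differences was not tested. *Mlycd* was 1.31 ± 0.09 higher in D2 in cortex (limma adjusted p = 2.71e-08) and differed by -1.25 ± 0.07 in liver (1.62e-08), with means of 4.36 and 5.67 log2 CPM for B6 and D2 in cortex and of 7.0 and 5.76 in liver. Its D2 mean lay above the highest Ctr line in cortex and below the lowest Ctr line in liver. The parents of *Capn11* differed in cortex (-1.43 ± 0.48, limma adjusted p = 0.0404). Their difference did not pass the test in liver (-0.78 ± 0.78, limma adjusted p = 0.525), where the B6 pools alone ran from -1.74 to 3.05.

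The difference between the parents was also compared between the tissues, as the D2 minus B6 difference in liver less that in cortex. The tables of the tissues and conditions were normalized separately, so these are differences of differences within tables. It passed limma's test for 99 of 152 genes with the opposite line order (65.1%) and for 126 of 471 with the same order (26.8%), against 11.3% of all genes tested. Each of the 11 genes with the opposite order that were named for their r or their spread was among them, from 1.72 log2 units for *Tuba1a* to 5.58 for *Slc39a2* in absolute size. Such sizes are less certain on the log scale where few reads are counted, as in the low liver lines of *Slc39a2*. Of the genes with the same order, *Fbxo44*, with few reads in its low liver lines, differed in log2 size between the tissues (-4.60, limma adjusted p = 0.0014). *Cox7a2l* (-0.14, 0.371) and *Rnps1* (-0.22, 0.305) did not pass.

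Gene lists were read for their members with a shared order. Interferon-stimulated genes, which answer antiviral cytokines, had 17 of 25 members tested, all 17 with r above 0 in Ctr (51.7% over all genes) and a median of 0.392 (0.0092 over all genes). Of the 17, 3 were called, all with the same order, where 4.43% of all genes were. *Xaf1* had 9 low lines, the same in both tissues (r = 0.956, rho = 0.744, permutation p = 1e-05 for each). *Trim30a* (r = 0.564, rho = 0.576) and *Irf9*, a subunit of the interferon transcription factor (r = 0.557, rho = 0.600), were weaker, and *Irf9* had an r of -0.0978 in SD. Permutation p was 8.4e-04 and 4.6e-04 (r and rho) for *Trim30a* and 7.6e-04 and 2.3e-04 for *Irf9*, and r without the 2 lines farthest from the cortex median was 0.510 and 0.461. Within the 9 low and 24 high cortex lines of *Xaf1* r was 0.498 and 0.319. In SD 15 of the 17 had r above 0 (59.1% over all genes), 2 were called with the same order, and the median was 0.404.

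Genes of the circadian clock and its output, a feedback loop of transcription present in nearly every cell, had 16 of 19 members tested, 13 with r above 0 in Ctr where 51.7% of all genes had this. The median r was 0.330 in Ctr and 0.336 in SD, against 0.0092 and 0.0479 over all genes, and 0.209 and 0.157 with pools of different condition. The same order was called in Ctr for 3 of the 16 (4.43% of all genes), *Per1*, a repressor of the loop (r = 0.707, rho = 0.614, permutation p = 1e-05 and 1.9e-04), *Nr1d2*, a nuclear receptor that represses *Arntl* (r = 0.637, rho = 0.615, permutation p = 1.4e-04 and 1.7e-04), and *Tef*, an output transcription factor (r = 0.557, rho = 0.441, permutation p = 9.5e-04 and 0.0109). Without the 2 lines farthest from the cortex median r was 0.607 for *Per1*, 0.582 for *Nr1d2* and 0.393 for *Tef*. *Tef* rested on the pool of BXD85, which was made from fewer mice and was lowest in both tissues (8.46 and 6.67 log2 CPM), and had an r of 0.361 without it. None of the list was called in SD, and a difference of r between SD and Ctr passed the test for none of the 16.

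Genes induced by glucocorticoids, the adrenal stress hormones, had 13 of 16 members tested. In Ctr none was called and the median r was 0.153. In SD 7 of 13 had the same line order, against 4.68% of all genes, and the median was 0.558, against 0.0479 over all genes. They were *Ddit4*, an inhibitor of mTOR signalling (r = 0.760), *Fkbp5*, a chaperone that restrains the glucocorticoid receptor (0.752), *Sgk1*, a kinase (0.737), *Nfkbia*, the inhibitor of NF-kappaB (0.701), *Tsc22d3*, or GILZ (0.699), *Zbtb16*, a transcription factor (0.696), and *Mt1*, a metallothionein (0.558). Permutation p was at most 6.0e-04 for r and 1.4e-04 for rho (both *Mt1*). Without the 2 lines farthest from the cortex median r was 0.533 (*Mt1*) to 0.779 (*Sgk1*). In SD, *Fkbp5* ran from 4.80 through 5.45 to 6.47 log2 CPM in cortex and from 6.95 through 7.67 to 8.32 in liver, and BXD95 was highest in both tissues. *Ddit4* ran from 4.30 through 4.85 to 5.32 in cortex and from 2.98 through 4.47 to 5.55 in liver. Without any one line the count was 7 to 9, and without BXD89 and BXD90 it was 7. With cortex and liver from different conditions no member was called and the medians were 0.0269 and 0.0117. With 1 pool a line and condition, an order shared by the SD pools may be a trait of the lines or a state of those pools. The design cannot tell these apart, and the same holds for the clock genes called in Ctr. A test of the difference between r in SD and r in Ctr (Fisher's z) called none of the 10625 genes (0%). The test treats both r as coming from separate samples, whereas they come from the same 33 lines. At an unadjusted p under 0.05 there were 434 genes, 288 of them with r higher in SD (2.71%), and 6 of the 13 list members were among these. The lowest adjusted p was 0.173, shared by *Ddit4* and *Sgk1*.

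**Figure D5:**
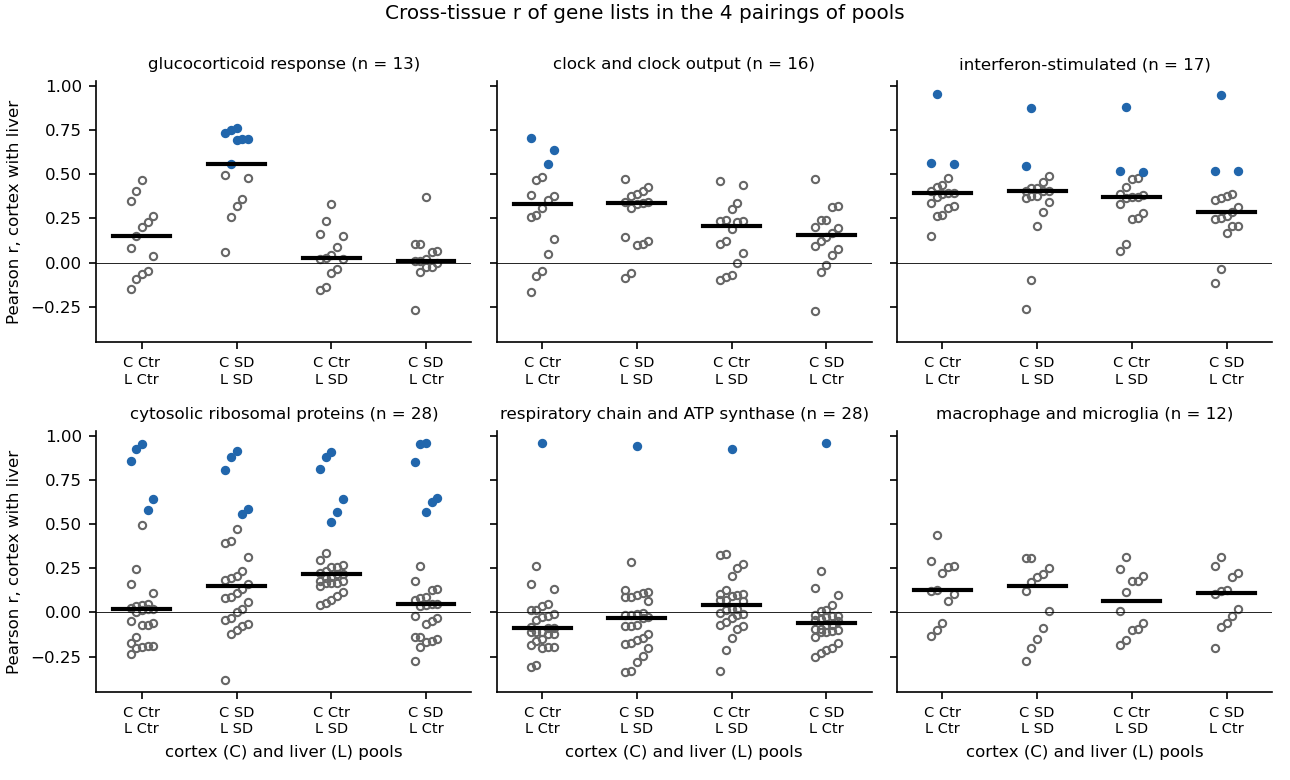
Pearson's r of cortex with liver line values (vertical axes) for the tested members of 6 gene lists (panels) in the 4 combinations of Ctr and SD pools (horizontal axes), 1 circle per gene, filled where called, with a bar at the median. Glucocorticoid response genes have a median of 0.153 with Ctr pools and 0.558 with SD pools of both tissues, and 0.0269 and 0.0117 in the mixed combinations.

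Counts in the lists of metabolism, chaperones and antigen presentation are small, and 4.43% of all genes tested had the same and 1.43% the opposite order. Mitochondrial fatty acid oxidation had 22 of 23 genes tested, a median r of -0.026, no gene of the same order and 1 of the opposite order, *Mlycd*. The respiratory chain and ATP synthase had 28 tested, a median of -0.0882 and 1 called, *Cox7a2l*. Of 15 glutathione transferases tested 1 was called, *Mgst3*, a microsomal enzyme (r = 0.702, rho = 0.711). Of 11 heat shock and cold-inducible genes 1 was called, the constitutive chaperone *Hspa8* (r = 0.859, rho = 0.752). Of 11 genes of MHC class I and II 1 was called, the class I chain *H2-K1* (r = 0.915, rho = 0.575), with 8 low cortex lines. Of 12 genes known to differ between B6 and D2, 6 were tested and 3 were called, the haem synthesis enzyme *Alad* (r = 0.911, rho = 0.544, 7 low cortex lines) and *Cox7a2l* with the same order and the myosin motor *Myo5a* with the opposite order (r = -0.510, rho = -0.481, adjusted p = 0.0433). Permutation p was at most 0.0025 for r (*Myo5a*) and 0.00477 for rho (*Myo5a*) in these genes. *Alad*, *Hspa8* and *H2-K1* had groups of lines in both tissues, with 33, 31 and 32 lines on the same side, and r within a group was -0.136 (*H2-K1*, low lines) to 0.663 (*Alad*, low lines).

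Cytosolic ribosomal protein genes of the list had 28 of 34 members tested, a median r of 0.0193 and 5 called with the same order (4.43% of all genes), without *Rpl29*, which is not on the list: *Rps18* (r = 0.952, rho = 0.456), *Rplp0* (0.925, 0.757), *Rpsa* (0.856, 0.783), *Rpl14* (0.645, 0.596) and *Rpl3* (0.578, 0.496). Permutation p was at most 2.5e-04 for r (*Rpl3*) and 0.00763 for rho (*Rps18*). *Rps18* and *Rplp0* had groups of lines in both tissues, all 33 lines on the same side, and within them r was -0.160 to 0.247. Of 4 Y-linked genes tested 1 was called, *Kdm5d* (r = 0.543, rho = 0.214, permutation p = 0.0128 and 0.230), which rested on BXD56, with an r of 0.0797 without it. Of the markers of other cell types, all 12 of macrophages and microglia were tested and none was called (median r 0.125), the erythroid list and the choroid plexus list had 1 gene tested each and none called, and no B cell marker was tested. Of the cortex markers 4 were tested (median r -0.0879) and none was called, and no liver marker reached the level needed in cortex.

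Called genes that lie near each other were compared by their line values. Among the 436 genes of the same order that could be placed, pairs within 5 Mb had a median absolute r between their cortex line values of 0.655 (786 pairs, 42.1% of at least 0.7), and pairs on different chromosomes one of 0.137. Among all genes placed the medians were 0.202 and 0.178. For the opposite order they were 0.611 (92 pairs) and 0.137. Genes this close are mostly inherited together in recombinant inbred lines. Genotypes of the lines were not read here, and the part of shared alleles in these correlations was not tested. The gene most like *Pttg1* in cortex among the called genes was *Ublcp1*, 1.04 Mb away (r = 0.918 over 33 lines), and that most like *Rpl29* was *Abhd14a*, 0.0134 Mb away (r = 0.986). The gene most like *Fut10* was *Mak16*, 0.0604 Mb away, and it had the same order in both tissues, so the pair had an r of 0.866 in cortex and -0.522 in liver. Not every named gene had its closest match nearby. The called gene most like *Mlycd* in cortex was *Lyplal1* (r = 0.567), that of *Tuba1a* was *Coq5* (0.724) and that of *Eps8l1* was *Arpp19* (-0.563), each on another chromosome. The share of genes with the same order ran from 0.617% on chromosome X to 7.03% on chromosome 1 among the chromosomes other than Y.

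Sequence shared with other loci limits what some of these values can be credited to, since reads of a processed copy elsewhere can be counted for a gene or lost from it. In windows of 100 bases of the GENCODE vM1 transcripts, searched in the mm9 genome, 99 of 436 genes of the same order (22.7%) had a perfect copy elsewhere, against 14.6% of 9984 genes placed, and 13 (2.98%) had copies of at least 50% of their windows, against 1.01%. For the opposite order the counts were 12 of 143 (8.39%) and 1 (0.699%), which was *Tuba1a* (53.2%). The share was 65.4% for *Rpl29*, 53.4% for *Rnps1*, 33.3% for *Cox7a2l* and *Hspa8*, 84.3% for *Rpl3*, 12.1% for *Tpm3*, and 0 for *Pttg1*, *Fbxo44*, *Mlycd*, *Fut10*, *Slc39a2*, *Atg16l2*, *Mtmr7*, *Atp6v0e2*, *Fmn2*, *Capn11* and *Eps8l1*. Copies elsewhere were also found for *Rps18*, *Rplp0*, *Rpsa*, *Rpl14*, *Xaf1* and *Zfp874a*, which had the same order. How far reads of copies entered the line values was not tested.

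The following transcript stretches show such copies in 3 of the 10 genes with the highest r. Each runs across an exon junction, whose adjoining bases are in capitals, and occurs without the intron at another locus of mm9. That of *Rnps1* joins chr17:24559199-24559248 to chr17:24561347-24561396 (plus strand) and recurs at chr6:7932730-7932829 (minus strand). That of *Rpl29* joins chr9:106332654-106332703 to chr9:106333400-106333449 (plus strand) and recurs at chr2:134629734-134629833 (plus strand). That of *Cox7a2l* joins chr17:83913544-83913593 to chr17:83903519-83903568 (minus strand) and recurs at chr12:25323754-25323853 (minus strand). A read made of these letters cannot be assigned to the gene or to the copy from its sequence alone.
Rnps1: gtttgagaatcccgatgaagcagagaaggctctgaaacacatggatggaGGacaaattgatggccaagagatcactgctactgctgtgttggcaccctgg
Rpl29: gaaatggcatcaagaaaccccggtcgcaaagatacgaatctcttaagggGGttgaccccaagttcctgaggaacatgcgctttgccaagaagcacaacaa
Cox7a2l: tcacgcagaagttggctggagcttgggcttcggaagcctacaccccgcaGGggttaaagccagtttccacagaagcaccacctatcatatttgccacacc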

How the data were processed

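RNA-seq of cortex and liver was analysed in 33 BXD/RwwJ lines (1 pool per line, tissue and condition) and in the parental B6 and D2 pools; libraries of the F1 and of the BXD lines of other stock were not used here. The deposited values are log2 CPM, which the authors computed after FastQC, STAR alignment to mm9, HTSeq counting and edgeR normalization, as named in the submitters' processing notes. Stranded mRNA libraries were sequenced, per the study's methods. Each tissue and condition is a table of its own, normalized separately, so correlations use 1 table per tissue and parental fits carry condition as a covariate. Removing the logarithm and the prior count returned values within 0.02 of an integer read number in 100% of cases, used here for depth alone.

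Pearson's r per gene, its two-sided p from the t distribution and Benjamini-Hochberg adjustment over 10625 genes were computed in python 3.11.15 (numpy 2.4.6, scipy 1.17.1, pandas 2.3.3), with two-sided permutation tests of 100000 resamples for named genes called in Ctr or in SD. The permutation p given for a gene uses the values by which it was called and does not allow for that choice. Genes were named as the 10 with the highest and the 10 with the lowest r among those called, the 5 called in each direction whose standard deviation between lines, in the tissue where it was smaller, was largest, list members, and the genes on either side of the minimum level. Lines counted as 2 groups when the largest gap that left at least 6 lines on each side was at least 1 pooled standard deviation within the sides. Parental strains were compared with limma 3.58.1 in R 4.3.3 over all genes listed in a tissue. Pool numbers of the parents mark the start and the end of data collection, and the deviations of number 1 from the strain means correlated between B6 and D2 at 0.0728 (Ctr) and 0.103 (SD) in cortex and at -0.0147 and 0.0200 in liver. The correlation and limma steps were tested on simulated data. Gene positions and copies came from GENCODE vM1 on NCBIM37 (mm9), where 9984 of 10625 symbols (94.0%) matched.

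The genes, lists and tests were chosen with earlier results of these data known. Alternatives tried were Spearman's rho, other minimum levels, median centring, linear CPM, fewer lines, removal of the first principal component, means of Ctr and SD, and for the parents single pools left out, Ctr pools only and a replicate block. The Fisher z test, the test of parental differences between tissues, the counts without BXD89 and BXD90 and all alternatives for the glucocorticoid list in SD were added after seeing the data.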

Additional observations from a re-analysis of the deposited data

Results flagged for a closer look

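For 11 named genes with the opposite line order, the difference between the parental strains (D2 minus B6, log2 CPM) differed between liver and cortex in limma's test of that difference (4 pools a strain and tissue, adjusted over all genes listed in both tissues). The value in liver less that in cortex was -2.56 for *Mlycd* (limma adjusted p = 1.8e-04), 4.08 for *Fut10* (9.5e-06), 1.92 for *Zfp157* (0.0017), -3.53 for *Atg16l2* (1.5e-04) and 5.58 for *Slc39a2* (1.2e-04). It was 2.77 for *Mtmr7* (limma adjusted p = 7.3e-05), 3.91 for *Atp6v0e2* (4.1e-05), 3.06 for *Fmn2* (2.5e-04), 1.72 for *Tuba1a* (0.0022), 2.84 for *Darc* (4.3e-04) and -3.72 for *Sytl1* (1.1e-04). Positive values, in 8 of the 11 genes, mean that D2 stood higher against B6 in liver than in cortex. Each of the 11 genes had a parental difference of opposite sign in the tissues, called in both.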

How the results depend on the processing

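The 471 genes with the same and the 152 with the opposite line order in Ctr stayed within 1.5 times of these counts under every alternative tried for them, from 347 and 118 (mean of at least 3 log2 CPM) to 686 and 228 (line means of Ctr and SD). Spearman's rho called 447 and 147 genes, of which 403 and 119 were shared with the main calls. Leaving out 1 line at a time gave 449 to 497 and 139 to 159 genes, and 7 to 9 glucocorticoid response genes with the same order in SD. Of 560 values of 41 called named genes under alternatives, none changed sign and 24 lost the call, in *Myo5a*, *Tef*, *Irf9*, *Trim30a*, *Rpl3*, *Rps18* and *Kdm5d*.

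Over all genes listed, 3804 differed between the parents in cortex and 2524 in liver. With Ctr pools only the counts were 2344 and 1583. Leaving out 1 pool number of a strain gave 2398 to 3417 in cortex and 1433 to 1767 in liver. The counts fell by more than 1.5 times without D2 replicate 1 (2398) or D2 replicate 2 (2527) in cortex, and without B6 replicate 2 (1433) or D2 replicate 1 (1630) in liver, where fewer samples were fitted. With the pool number as a replicate block the counts were 4447 in cortex and 2356 in liver, within 1.5 times.

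Depth limits liver more than cortex. For genes under 30 reads per liver library, counting error alone gives a standard deviation of 0.335 log2 units (median), against 0.50 between lines. With 1 pool a line, the error within a line is unknown.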
